A study of Dunaliella tertiolecta with 6 samples.

Results

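TIDI1 and the LHCA genes encode members of the light-harvesting complex (LHC) protein family that serve photosystem I in the green alga Dunaliella tertiolecta. TIDI1 and every gene whose name in the deposited annotation is LHCA followed by a number and an optional copy letter were taken, which gave 8 genes (TIDI1 and 7 LHCA genes) of 14354 genes in the expression table. Poly(A)-selected RNA of the wild-type strain UTEX LB 999 of this wall-less alga, which lives in salt water, was measured in 6 libraries. Of these, 3 came from flasks without added iron (0 µM) and 3 from flasks with 1.5 µM added iron. Cells of both groups were vegetative and grew with 2 M NaCl in constant light (100 µE per square metre per second). The flasks stood on shakers (140 rpm) at 24 °C. Cells were collected after 2 d according to one label and 3 days according to another. Levels are FPKM, which counts sequenced fragments relative to the length of the transcript and the number of mapped reads. Levels of different genes can thus be set side by side as far as the length used is right. The question is how the antenna of photosystem I is expressed when no iron is supplied.

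Photosystem I drives electrons from plastocyanin or a soluble cytochrome to ferredoxin or flavodoxin, and it is rich in iron because its core binds iron-sulfur clusters. Light energy reaches the core from chlorophyll-binding LHCA proteins arranged around it. In the related alga Chlamydomonas reinhardtii, LHCA1, LHCA8, LHCA7 and LHCA3 line one side of the core as an inner belt, and LHCA2 and LHCA9 bind at the opposite side. TIDI1 is an LHC-family protein first described in thylakoids of iron-deprived Dunaliella salina, where it is found with photosystem I.

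All 8 genes are nuclear and lie on 6 scaffolds of the authors' assembly. TIDI1 (Dte_g01542) spans 1771616 to 1779630 on the minus strand of scaffold_11, and each LHCA gene is on the plus strand. It is the only 1 of 14351 gene models with more than 1 transcript. Transcript 1 has 8 exons and 1053 nt of coding sequence, or 351 codons. Transcript 2 shares the first 3 exons and then continues in 2 exons farther downstream, which gives 780 nt or 260 codons. The table has a single value for the gene, so the level of each transcript could not be given.

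**Figure D1:**
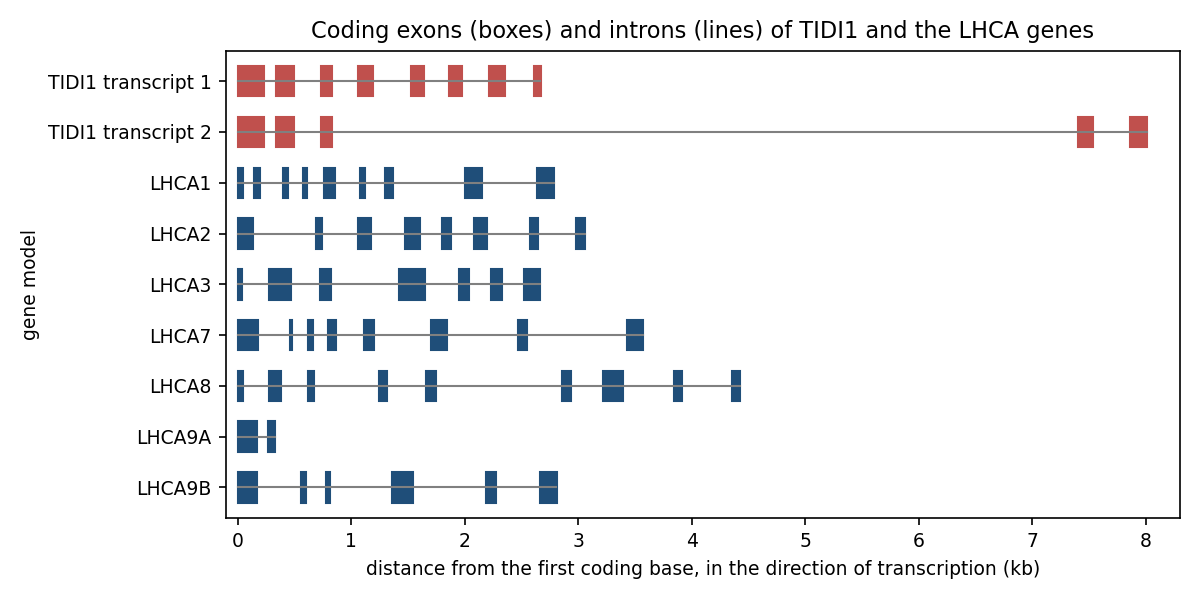
Coding exons (boxes) and introns (lines) of TIDI1 and the 7 LHCA genes, drawn by distance in kb from the first coding base. The 2 TIDI1 transcripts share their first 3 exons, and LHCA9A has 2 exons where LHCA9B has 6.

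LHCA1 (Dte_g08372, scaffold_08, 7289448 to 7292232) and LHCA8 (Dte_g08904, scaffold_05, 1904530 to 1908956) have 9 coding exons each, with coding lengths of 687 and 765 nt. LHCA7 (Dte_g03155, scaffold_10, 1221820 to 1225393) and LHCA2 (Dte_g00473, scaffold_03, 5671958 to 5675020) have 8 exons each, with 768 and 786 nt. LHCA3 (Dte_g10391, scaffold_07, 4486047 to 4488709) has 7 exons and 861 nt. LHCA9A (Dte_g09130) and LHCA9B (Dte_g09131) are next to each other on scaffold_05, from 4993853 to 4994183 and from 5005369 to 5008177, with 11185 nt between them. LHCA9A has 2 exons and 237 nt of coding sequence, 35.4% of the 669 nt of LHCA9B, and the first exon measures 172 nt in both genes. Only 5.99% of the genes in the table are as short as LHCA9A or shorter.

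Without added iron the transcripts of the photosystem I antenna differed in composition. TIDI1 rose to become the most abundant of the 8, and LHCA2, LHCA3, LHCA9A and LHCA9B fell to between 376 and 842 FPKM on average, against 2872 to 3817 FPKM with iron. LHCA1, LHCA7 and LHCA8 did not pass the test and averaged 2684 to 3358 FPKM without added iron and 2636 to 3747 FPKM with it. Over all 11273 genes tested with limma, 11.6% were called higher and 18.7% lower without added iron at an adjusted p under 0.05. That balance depended on the scaling, since 1303 genes were higher and 2105 lower with FPKM as deposited, and 3188 higher and 1087 lower when the FPKM sums were made equal. Of the 7 LHCA genes 4 were called lower and none higher. All 4 were more than 4-fold lower, as were 0.577% of the tested genes, and TIDI1 was among the 0.63% more than 4-fold higher. Past 4-fold were 2 of them with equal sums (LHCA3 and LHCA9A) and 1 under quantile normalization (LHCA3), although all 4 were still called. For the 7 LHCA genes the median log2 fold change was -2.09, where that of all tested genes was -0.03. That median is the value of LHCA2, and no LHCA gene lay between it and the -0.18 of LHCA1. In bulk RNA such as this, fewer transcripts per cell and fewer cells with a transcript cannot be told apart.

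TIDI1 had 5867, 5517 and 5476 FPKM in the 0 µM libraries of replicates 1, 2 and 3, against 8.72, 17.1 and 9.48 FPKM in the 1.5 µM libraries. Its groups lay far apart, and the 1.5 µM replicate 2 library was the highest of its group. The log2 fold change was 8.84 on the log2(FPKM + 1) scale (SE 0.22, limma adjusted p = 3.878e-07), with a 95% interval of 8.33 to 9.35. Ranked among all genes of a library, TIDI1 was number 16, 23 and 16 at 0 µM and number 6729, 4283 and 6465 at 1.5 µM. It supplied 0.659% of all FPKM at 0 µM and 0.00117% at 1.5 µM.

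LHCA3, which in Chlamydomonas sits at the end of the inner belt, had the largest fall among the LHCA genes. Its values were 346, 419 and 363 FPKM in the 0 µM libraries, against 2873, 2955 and 2789 FPKM in the 1.5 µM libraries. No 0 µM library came near the lowest 1.5 µM library, and the level was 7.64-fold lower without added iron on the log2(FPKM + 1) scale (log2 fold change -2.93, SE 0.08, limma adjusted p = 6.237e-07).

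LHCA2 had 831, 887 and 751 FPKM in the 0 µM libraries, against 3451, 3645 and 3426 FPKM in the 1.5 µM libraries. The libraries of each group kept within a narrow range and the groups did not overlap (log2 fold change -2.09, SE 0.07, limma adjusted p = 2.041e-06). LHCA9B had 811, 912 and 805 FPKM in the 0 µM libraries, against 3661, 4103 and 3688 FPKM in the 1.5 µM libraries. It had the highest mean of the 8 genes with 1.5 µM iron, and at 0 µM TIDI1, LHCA1, LHCA7 and LHCA8 stood above it (log2 fold change -2.18, SE 0.08, limma adjusted p = 2.025e-06). LHCA9A had 736, 781 and 731 FPKM in the 0 µM libraries, against 3439, 3861 and 3641 FPKM in the 1.5 µM libraries (log2 fold change -2.28, SE 0.06, limma adjusted p = 6.636e-07). The short copy therefore stood close to the long one in every library. The ratio of LHCA9A to LHCA9B was 0.908, 0.856 and 0.908 in the 0 µM libraries and 0.939, 0.941 and 0.987 in the 1.5 µM libraries. Whether reads of these copies could be shared was not tested, and the FPKM of a gene as short as LHCA9A depends strongly on the length the authors' software used. Neither gene had FPKM values identical to those of another gene.

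LHCA1 had 3161, 3675 and 3103 FPKM in the 0 µM libraries, against 3652, 3986 and 3603 FPKM in the 1.5 µM libraries. The highest 0 µM library exceeded the lowest 1.5 µM library, so the groups overlapped, and the log2 fold change of -0.18 had a 95% interval of -0.37 to 0.01 (limma adjusted p = 0.1327). LHCA8 had 3266, 3664 and 3143 FPKM in the 0 µM libraries, against 3725, 3936 and 3461 FPKM in the 1.5 µM libraries. Its groups overlapped as well, and its log2 fold change of -0.14 had an interval of -0.33 to 0.04 (limma adjusted p = 0.2034). With the replicate number as a block, LHCA1 and LHCA8 were called lower, at a limma adjusted p of 0.02717 and 0.0483. LHCA1 was also called lower without the 0 µM replicate 2 library (log2 fold change -0.26, limma adjusted p = 0.02743).

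LHCA7 had 2513, 2853 and 2687 FPKM in the 0 µM libraries, against 2647, 2740 and 2520 FPKM in the 1.5 µM libraries. The lowest and the highest value both belonged to the 0 µM group, and the log2 fold change of 0.03 had an interval of -0.13 to 0.18 (limma adjusted p = 0.7996). The sign of LHCA1 and LHCA8 and the call of LHCA7 and LHCA8 depended on how the libraries were scaled. When the libraries were scaled to equal FPKM sums, the median over the tested genes moved to 0.17, and LHCA7 was called higher at 0.25 (limma adjusted p = 0.005234), while LHCA1 at 0.05 and LHCA8 at 0.09 did not pass. Under quantile normalization LHCA7 was called at 0.55 (limma adjusted p = 0.0002983) and LHCA8 at 0.15 (0.01383), and LHCA1 was at 0.11 (0.07294). The 4 genes that fell and TIDI1 kept their direction and their call under every setting tried.

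**Figure D2:**
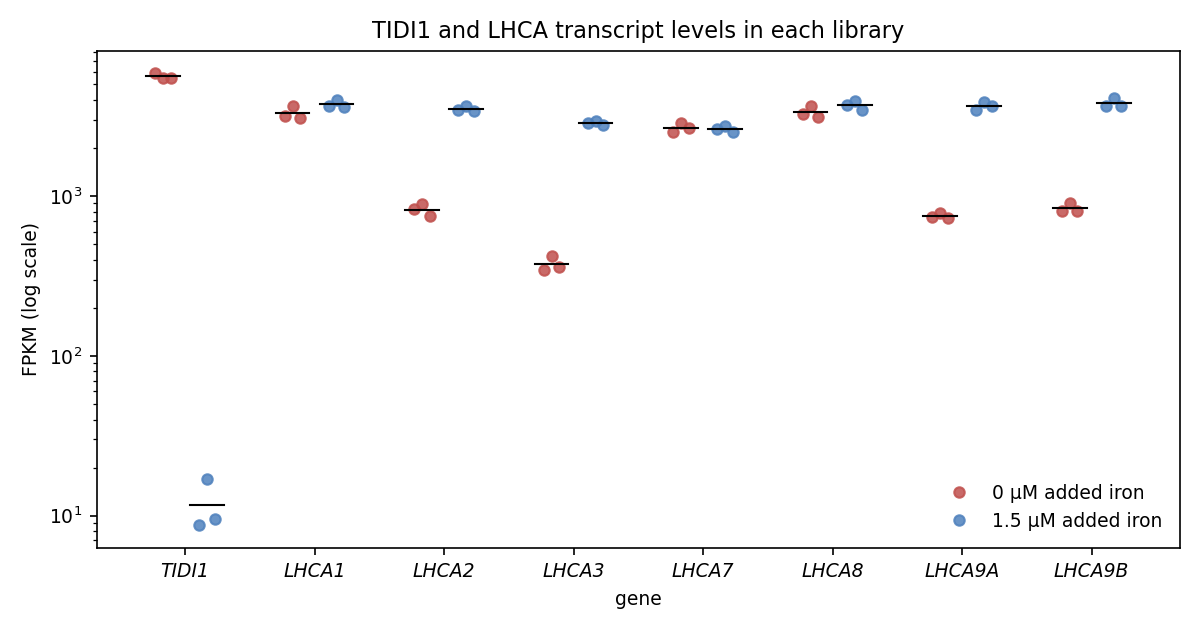
FPKM (log axis) of TIDI1 and the 7 LHCA genes in each library, with 0 µM added iron in red and 1.5 µM in blue. Points are libraries (3 per group) and lines are means. TIDI1 averaged 5620 FPKM at 0 µM and 11.75 FPKM at 1.5 µM, and LHCA1, LHCA7 and LHCA8 overlapped between the groups.

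The libraries of TIDI1, LHCA2, LHCA3, LHCA9A and LHCA9B did not overlap between the groups, as was the case for 47.5% of all tested genes. Within each group the replicate 2 library was the highest for all 7 LHCA genes. At 0 µM it was also the highest for all 9 nuclear photosystem I core genes, but for 37.0% of all tested genes, against 41.6% for replicate 3. At 1.5 µM the replicate 2 library was the highest for 7 core genes and for 37.4% of all tested genes. Replicate 2 had the largest FPKM sum of each group, 898151 at 0 µM and 1021467 at 1.5 µM. TIDI1 was highest in replicate 1 at 0 µM and in replicate 2 at 1.5 µM.

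The order of levels changed between the iron conditions. Without added iron the order was TIDI1, LHCA8, LHCA1, LHCA7, LHCA9B, LHCA2, LHCA9A and LHCA3. LHCA8 and LHCA1 overlapped in that order, as did LHCA9B with LHCA2 and LHCA2 with LHCA9A, and the other neighbours did not overlap. With 1.5 µM iron the order was LHCA9B, LHCA1, LHCA8, LHCA9A, LHCA2, LHCA3, LHCA7 and TIDI1, and each of the first 4 overlapped the gene after it. LHCA3, LHCA7 and TIDI1 each lay below the gene before them with no overlap.

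As a share of the summed FPKM of TIDI1 and the 7 LHCA genes, TIDI1 made up 33.5%, 29.5% and 32.1% in the 0 µM libraries, against 0.0372%, 0.0676% and 0.041% in the 1.5 µM libraries. The exact two-sided permutation test gave p = 0.1, the smallest value that 3 libraries against 3 allow, so it could not pass 0.05 for any share. The groups were nevertheless wide apart, with a mean of 31.7% ± 2.02 at 0 µM and 0.0486% ± 0.0166 at 1.5 µM (SD, n = 3 each). LHCA1 made up 18.6% ± 0.889 at 0 µM and 15.6% ± 0.128 at 1.5 µM, LHCA8 18.9% ± 0.618 and 15.5% ± 0.473, and LHCA7 15.1% ± 0.718 and 11.0% ± 0.238. LHCA2 made up 4.63% ± 0.196 at 0 µM and 14.7% ± 0.19 at 1.5 µM, and LHCA3 2.11% ± 0.133 and 12.0% ± 0.275. LHCA9A made up 4.22% ± 0.0581 at 0 µM and 15.2% ± 0.54 at 1.5 µM, and LHCA9B 4.74% ± 0.126 and 15.9% ± 0.324. With FPKM times coding length (for TIDI1 that of transcript 1, 1053 nt), LHCA1 made up 15.6% at 0 µM and 16.0% at 1.5 µM. LHCA8 made up 17.7% and 17.6%. Neither difference was larger than the spread between libraries (exact permutation p = 0.5 and 0.9). LHCA9A, with its short model, made up 1.22% at 0 µM and 5.37% at 1.5 µM on that scale. By FPKM, LHCA2, LHCA3, LHCA9A and LHCA9B together held 15.7% of the pool at 0 µM and 57.8% at 1.5 µM. LHCA1, LHCA7 and LHCA8 held 52.6% and 42.1%. These 2 sets follow the limma calls in the same libraries, so their contrast describes those calls and adds nothing to them.

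**Figure D3:**
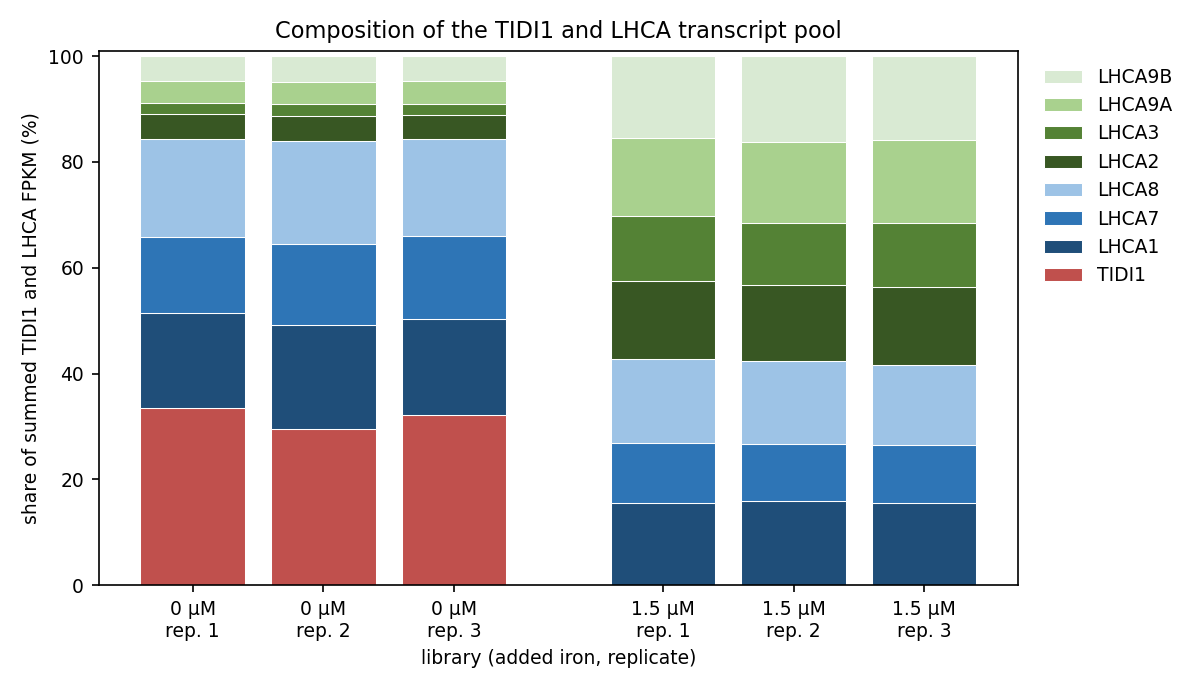
Share (%) of each gene in the summed FPKM of TIDI1 and the 7 LHCA genes, 1 bar per library, with the 0 µM libraries on the left and the 1.5 µM libraries on the right. TIDI1 fills 29.5% to 33.5% of the 0 µM bars and under 0.1% of the 1.5 µM bars.

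Among the LHCA genes alone, with TIDI1 left out of the sum, the 0 µM pool was made up mostly of LHCA8 (27.6% ± 0.447), LHCA1 (27.3% ± 0.549) and LHCA7 (22.1% ± 0.929), against 15.5% ± 0.473, 15.7% ± 0.131 and 11.0% ± 0.237 for the same genes at 1.5 µM (SD, n = 3 each). LHCA3 was the smallest component without added iron at 3.09% ± 0.11, against 12.0% ± 0.273 with it. LHCA2 held 6.78% ± 0.325 at 0 µM and 14.7% ± 0.188 at 1.5 µM. With iron the 7 shares ran from 11.0% to 15.9%, and without added iron they ran from 3.09% to 27.6%. With FPKM times coding length they ran from 5.37% (LHCA9A) to 17.6% (LHCA8) with iron.

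Pairs of LHCA genes were compared by their log2 ratio within each library, which multiplying a library by a factor does not alter. The ratio of LHCA1 to LHCA3 averaged 3.14 on the log2 scale at 0 µM and 0.38 at 1.5 µM, a difference of 2.76 (SE 0.04), and that of LHCA1 to LHCA2 averaged 2.01 and 0.09, a difference of 1.91 (SE 0.04). The log2 ratio of LHCA2 to LHCA3 was 1.13 at 0 µM and 0.29 at 1.5 µM, a difference of 0.84 (SE 0.07) with no overlap between the groups, so the fall of LHCA3 was the larger in these libraries. LHCA1 and LHCA8 were not separated in response: their log2 ratio differed by -0.04 (SE 0.03) and the groups overlapped (exact permutation p = 0.3), and the same held for LHCA2 and LHCA9B (difference 0.09, SE 0.05, exact permutation p = 0.2). In 19 of the 21 pairs the ratios of the 2 groups did not overlap. Among all pairs of the 869 tested genes with a mean of at least 100 FPKM this was true of 77.5%, so the count itself is not far from that of abundant genes in general. Each of the 19 had the smallest exact p of 0.1, and no pair passed 0.05 after adjustment over the 21.

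The summed level of the 7 LHCA genes was 11664, 13189 and 11582 FPKM in the 0 µM libraries, against 23447, 25226 and 23131 FPKM in the 1.5 µM libraries, or 1.97-fold lower (log2 difference -0.98, SE 0.07, exact permutation p = 0.1). With TIDI1 added, the sum was 17531, 18706 and 17057 FPKM at 0 µM, against 23456, 25243 and 23140 FPKM at 1.5 µM, or 1.35-fold lower (log2 difference -0.43, SE 0.06). The groups did not overlap in either sum. TIDI1 and the LHCA genes together supplied 2.08% ± 0.0316 of all FPKM at 0 µM and 2.39% ± 0.0693 at 1.5 µM (SD, n = 3 each). Without TIDI1 these shares were 1.42% ± 0.0544 and 2.39% ± 0.0688.

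The 9 nuclear genes of the photosystem I core summed to 6665 ± 555 FPKM at 0 µM and 38743 ± 2000 FPKM at 1.5 µM (SD, n = 3 each), 5.82-fold lower without added iron. The ratio of summed LHCA to summed core FPKM was 1.81, 1.81 and 1.86 in the 0 µM libraries, against 0.611, 0.617 and 0.626 in the 1.5 µM libraries. It was thus 2.95-fold higher without added iron, with a spread within each group far below the difference (log2 difference 1.56, SE 0.02, exact permutation p = 0.1). With TIDI1 counted as antenna the ratio was 2.71, 2.56 and 2.73 at 0 µM, and 4.32-fold higher than at 1.5 µM (log2 difference 2.11, SE 0.03, exact permutation p = 0.1). TIDI1 alone stood at 0.908, 0.756 and 0.877 FPKM per FPKM of summed core genes at 0 µM.

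The photosystem II antenna genes (LHCB and LHCBM) summed to 32941 ± 2120 FPKM at 0 µM and 74590 ± 3410 FPKM at 1.5 µM (SD, n = 3 each), 2.27-fold lower. The ratio of the LHCA to the LHCB and LHCBM sum was 0.358, 0.375 and 0.374 in the 0 µM libraries, and 0.321 in all 3 libraries of the 1.5 µM group. The difference was small beside that for the core, 1.15-fold (log2 difference 0.20, SE 0.02, exact permutation p = 0.1). These sums of the photosystem II antenna were added to the comparisons after the values of the members were known. Some LHCBM genes had close levels, such as LHCBM4 and LHCBM5 with means of 1720 and 1710 FPKM at 0 µM and 5980 and 6410 FPKM at 1.5 µM. Whether reads of LHCBM genes could be shared was not tested.

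**Figure D4:**
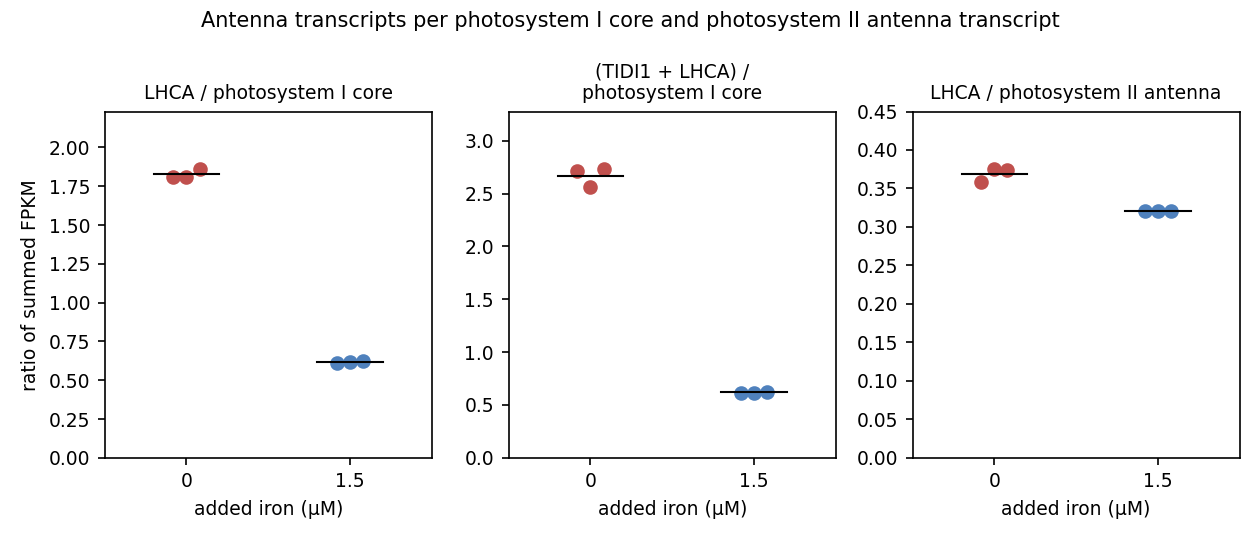
Ratios of summed FPKM in each library, with 0 µM added iron on the left of each panel and 1.5 µM on the right. Points are libraries (3 per group), lines are means and each axis starts at 0. LHCA over photosystem I core was 1.82 at 0 µM and 0.618 at 1.5 µM on average, and LHCA over photosystem II antenna 0.369 and 0.321.

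The other genes of photosystem I and of light harvesting were read from the same limma fit. Beside the counts for each list stand the 11.6% of all tested genes called higher and the 18.7% called lower. The table holds 12 core genes. After the filter 11 were tested, of which 9 were lower without added iron and 2 plastome genes (psaB and psaC) did not pass. In this poly(A)-selected RNA, psaB averaged only 8.75 FPKM at 0 µM and 9.58 FPKM at 1.5 µM, and psaC 5.67 and 3.07 FPKM. The SE of their log2 fold changes was 0.33 and 0.64, so the fit does not show that they stayed level. The 9 nuclear genes ran from -3.12 to -1.91 with a median log2 fold change of -2.50. PSAF1, a subunit at the plastocyanin side, was at 703 ± 30.4 FPKM at 0 µM and 4090 ± 112 FPKM at 1.5 µM (SD, n = 3 each). PSAD1, which helps to bind ferredoxin, fell by 2.81 on the log2 scale and the small membrane subunit PSAI1 by 2.41. LHCA2, LHCA3, LHCA9A and LHCA9B lay within the range of the nuclear core genes, and LHCA1, LHCA7 and LHCA8 lay above all 9 of them.

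Among 9 photosystem II antenna genes 8 were lower and none higher, with a median of -1.12, and LHCB7 did not pass. LHCBM5 (log2 fold change -1.91, limma adjusted p = 3.948e-06), LHCBM4 (-1.80) and the minor antenna gene LHCB4 (-1.57) had the smallest p-values. The fold changes of the 9 genes ran from -1.91 to 0.13, all above those of the 4 LHCA genes that were called. That difference was not tested. In the 0 µM libraries TIDI1 was above LHCBM4 and LHCBM5, which averaged 1720 and 1710 FPKM, and below LHCBM1, the most abundant LHCBM gene.

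In the photosystem I assembly list, which holds splicing and translation factors for psaA and psaB and other factors, 6 of 15 were lower, 1 was higher and 8 did not pass, with a median of -0.10. With equal FPKM sums 4 of this list were higher and 3 lower. Those with the smallest p were HCF101, which in Arabidopsis carries iron-sulfur clusters to photosystem I (9.53 ± 0.198 FPKM at 0 µM and 44.7 ± 2.13 FPKM at 1.5 µM, log2 fold change -2.12), PPD1, a photosystem I assembly factor in Arabidopsis (-2.99), and Y3IP1 (-0.64). With replicates 1 and 2 only, 3 genes of this list were called.

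For import and insertion of antenna proteins into the thylakoid, 3 of 4 genes were lower, namely the insertases ALB3B (-0.70) and ALB3A (-0.87) and the receptor gene FTSY1 (-0.45), and SRP54 was at -0.09 (limma adjusted p = 0.3391). With equal FPKM sums 2 of the 4 were lower. With the lettered copies of SRP43 and LTD1 and with SRP54L, 8 of 9 were lower and none higher, among them LTD1A at -1.49. These copies and SRP54L were added after the names were seen. All 4 genes for chlorophyll b and for the last step of chlorophyll synthesis were lower: the chlorophyllide a oxygenase gene CAO1 at -0.56, the chlorophyll synthase gene CHLG1 at -0.97, and NYC1 at -0.74 and HCAR1 at -1.56, both named for reductases that turn chlorophyll b back into chlorophyll a. Of 14 LHC-like photoprotective genes 12 were tested, of which 6 were lower, none higher and 6 did not pass, with a median of -0.31 and with OHP1 (-0.71), ELIP8 (-0.58) and PSBS1 (-0.58) at the smallest p. With equal FPKM sums 1 of these was higher and 4 were lower. With replicates 1 and 2 only, 3 of these were called.

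**Figure D5:**
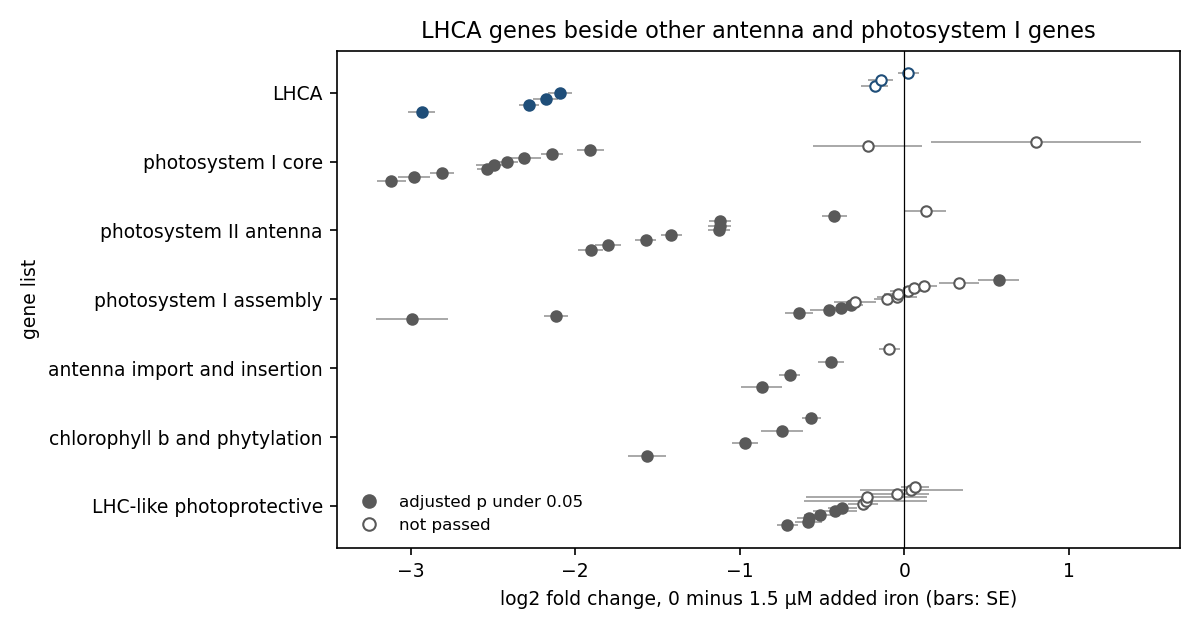
Log2 fold change (0 minus 1.5 µM added iron, limma) of the LHCA genes and of 6 lists of related genes, 1 point per gene with its SE. Filled points had an adjusted p under 0.05. The LHCA genes fall into 2 sets, 4 between -2.93 and -2.09 and 3 between -0.18 and 0.03.

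The list of electron carrier genes was drawn by name (FLD, FDX, FNR, PCY and CYC6). Which of its ferredoxins serve photosystem I was not tested. Of the 12 genes, 1 was higher and 9 lower, with a median of -0.89. FLD1 for flavodoxin, the iron-free substitute of ferredoxin, was higher (log2 fold change 9.49, limma adjusted p = 2.62e-08), and the ferredoxin genes FDX1A (-3.80) and FDX1B (-4.68) were lower. In the list for state transitions, by which antenna is moved between the photosystems, and for cyclic electron flow, 2 of 8 were higher and 5 lower. The higher ones were PGR5 (log2 fold change 0.72, limma adjusted p = 0.0002552) and PGRL1 (0.50), both of cyclic flow. ANR1 (-0.66, limma adjusted p = 0.002215) and STL1 (-0.67) of the same list were lower, and PBCP1 did not pass. The list therefore did not move in a single direction. PETO1, a thylakoid phosphoprotein linked to the cytochrome b6f complex, was lower by 2.69 on the log2 scale, the phosphatase gene PPH1 was at -1.63, and STT7, the kinase of LHC proteins in Chlamydomonas, was at -0.84.

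The genes whose pattern over the 6 libraries was most like that of a member were sought among 6305 tested genes with a mean of at least 10 FPKM. Likeness was the root mean square (RMS) difference of the centred log2(FPKM + 1) values, smaller being more alike. Nearest to TIDI1 were the unnamed gene Dte_g01071 (RMS difference 0.318), FLD1 (0.368), SUTP1 (0.503), SUTP3 (0.51) and Dte_g14165 (0.525). All 5 were near 0 or low with iron and high without it, such as FLD1 at 9690 ± 875 FPKM at 0 µM and 12.6 ± 2.46 FPKM at 1.5 µM (SD, n = 3 each).

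The fallen LHCA genes had subunits of the photosystem I core among their nearest genes. PSAL1 was nearest to LHCA2 (RMS difference 0.0376) and to LHCA9B (0.0539), PSAD1 to LHCA3 (0.0691), and PSAI1 was the next after LHCA9B for LHCA9A (0.0722). The next for LHCA2 was RPE1 for ribulose-phosphate epimerase (0.0402), and the next for LHCA3 was the unnamed Dte_g12244 (0.074). LHCA1 and LHCA8 were nearest to genes with little change. For LHCA1 these were RPL7AE (0.0281) and RPL12 (0.0318), both named for ribosomal proteins, and for LHCA8 they were XPG4 (0.0207) and RPL12 (0.0233). LHCA1 and LHCA8 themselves were 0.0343 apart. Nearest to LHCA7 were the unnamed Dte_g02387 (0.0223) and Dte_g10468 (0.0262). With 3 libraries per group these distances rest mostly on the difference between the groups.

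Of the 14 genes that flank the members, 1 was called higher without added iron, 3 were called lower, 8 did not pass and 2 were too low to test. Over all tested genes 11.6% were called higher and 18.7% lower, so these counts do not set the flanking genes apart. TIDI1 lies between Dte_g01541, which ends 672 nt away on the opposite strand, and Dte_g01543, at 3487 nt on the same strand. Dte_g01541 had 2.12 ± 0.641 FPKM at 0 µM and 1.77 ± 0.151 FPKM at 1.5 µM (SD, n = 3 each), and Dte_g01543 had 19.0 ± 1.8 and 16.6 ± 0.355 FPKM. Neither passed (log2 fold changes 0.15 and 0.19, limma adjusted p = 0.5445 and 0.1542). Beside LHCA2 and LHCA3, the genes Dte_g00472 (-0.18), Dte_g10390 (-0.09) and Dte_g10392 (0.11) did not pass, and Dte_g00474 was below the filter. Next to the LHCA9 pair, PFK1 was higher by 0.55 (limma adjusted p = 0.005167), and Dte_g09132 did not pass (0.07). COQ5C beside LHCA1 (-0.36), Dte_g03156 beside LHCA7 (-0.29) and PRPL29 beside LHCA8 (-0.51) were called lower. Dte_g08373 beside LHCA1 (0.26) and SYP8 beside LHCA7 (0.06) did not pass, and Dte_g08905 beside LHCA8 was listed at 0 in every library.

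The 0 µM libraries had FPKM sums of 808592 to 898151, and the 1.5 µM libraries of 982304 to 1021467. Libraries of one group correlated at 0.99 to 0.994 (Pearson's r across genes of log2(FPKM + 1)), and libraries of different groups at 0.962 to 0.969. Of 15 names listed as markers of a photosynthetic cell, 10 were in the table, with sums of 36600 to 41500 FPKM at 0 µM, against 81500 to 88600 FPKM at 1.5 µM, a difference that includes the LHCBM and PSAD1 genes described above. TUB1 and TUB2, the tubulin genes in the table among 4 listed for a flagellate, had sums of 1360 to 1590 FPKM at 0 µM, against 929 to 940 FPKM at 1.5 µM. The 2 went opposite ways. TUB2 had 1110 to 1320 FPKM at 0 µM and 640 to 660 FPKM at 1.5 µM, and TUB1 had 253 to 270 and 275 to 290 FPKM. Of 8 names of gamete or zygote genes, 3 were in the table. HAP2, which is needed for gamete fusion, was at 0.297 FPKM or lower and GEX1 at 0.076 FPKM or lower in every library, and ZYS3 was between 49.1 and 59.2 FPKM. The part of these in the results was not tested.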

How the data were processed

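The deposited FPKM values are the authors', 1 per gene and library. Per the design text, reads (50 nt, single-end, poly(A)-selected) were aligned to an assembly of their own. STAR 2.4.0j and Cuffdiff 2.0.2 appear in the submitters' processing notes. Names, coordinates and coding lengths came from the deposited annotation, and sequences were not used here. Groups follow the iron level in the titles. No label says whether the flasks had separate precultures, so p-values may measure technical spread only.

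log2(FPKM + 1) was fitted with limma 3.58.1 in R 4.3.3 (eBayes with trend, two-sided, Benjamini-Hochberg over the 11273 genes with a mean of at least 1 FPKM, threshold 0.05). Fold changes of low genes are understated on this scale. The procedure was tested on simulated data. Shares, sums and ratios had exact permutation tests. Read totals were not used here. Low FPKM values times coding length fell on steps, in both replicate 3 libraries only after 205 nt were taken off the length (26.1% and 21.9% of low values in the densest 1% bin, against 2.49% and 3.04% with the full length), and whole reads were not recovered. If a step is 1 read, depth was 10200000 to 20200000 reads. Whether lengths were treated alike in all libraries was not tested, and the shares, above all of a gene as short as LHCA9A, rest on it.

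Deviations from the group mean correlated at 0.239, 0.262 and 0.168 between libraries of the 2 groups with the same replicate number. Between those with different numbers the correlations ran from -0.22 to -0.0144. No label states a pairing. The main tests do not pair the libraries, and a fit with the number as a block was an alternative. The members and lists were chosen with earlier results of these data known. The genes named are all members, the 3 of each list with the smallest p, the 5 genes most like TIDI1 and the 2 most like each LHCA gene, and the nearest gene on each side. psaB, psaC, LHCB7, LHCBM1, SRP54, NYC1, PGR5, PGRL1, ANR1, STL1, PBCP1 and LTD1A were named after their values were seen. Python 3.11.15, pandas 2.3.3 and matplotlib 3.10.9 were used.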

Additional observations from a re-analysis of the deposited data

How the results depend on the processing

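TIDI1, LHCA2, LHCA3, LHCA9A and LHCA9B kept their direction and call with other pseudocounts (0.1 or 0.01 FPKM), other filters (none or 5 FPKM), 3 other scalings, eBayes without the trend or robust, the replicate block, each library left out and replicates 1 and 2 only. Without 1 library, their log2 fold changes ran from 8.67 to 9.12, -2.15 to -2.03, -3.02 to -2.88, -2.32 to -2.24 and -2.24 to -2.13. With the replicate block, limma called LHCA1 at -0.18 (adjusted p = 0.02717) and LHCA8 at -0.14 (0.0483), and no other member changed its call. Without 1 library LHCA1 ran from -0.26 to -0.14, and passed without 0 µM replicate 2. LHCA8 was 0.15 higher and LHCA7 0.55 higher under quantile normalization, and LHCA7 0.25 higher with equal sums. The cause was not tested. With replicates 1 and 2 only, 1685 genes changed in place of 3408, with 3 genes each in the photosystem I assembly and LHC-like lists. The fit has fewer samples there. The import list had 8 calls with the lettered copies, a longer list.

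With FPKM times coding length, TIDI1 made up 40.8% of the pool at 0 µM and 0.0761% at 1.5 µM. The length taken for TIDI1 was the 1053 nt of transcript 1, the longest coding sequence of the 8 genes. Transcript 2, with 780 nt, is shorter than LHCA2 and LHCA3, and its use was not tried. With FPKM times these lengths, the log2 difference of LHCA over core was 1.62. That of TIDI1 plus LHCA over core was 2.38 and that of the TIDI1 plus LHCA sum -0.15. With equal sums the LHCA sum differed by -0.75 and the TIDI1 plus LHCA sum by -0.20. With LHCA9A left out, a choice made after seeing the data, the LHCA sum differed by -0.83, TIDI1 plus LHCA by -0.25, LHCA over core by 1.71 and TIDI1 plus LHCA over core by 2.29. None of these sums and ratios changed sign, but the share of LHCA1 did (15.6% at 0 µM and 16.0% at 1.5 µM with FPKM times coding length). With the replicate block the exact p of the TIDI1 share was 0.25, the smallest that 3 pairs allow. With 3 libraries per group, exact tests could not pass 0.05, whatever the depth.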
